A study of Mus musculus with 4 samples.

Results

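The response to lipopolysaccharide (LPS) was examined here between 2 of the 4 libraries of mouse bone marrow-derived macrophages in the series: the LPS library titled WT and the untreated library titled KO. These were the 2 libraries in which the lysozyme gene Lyz1 exceeded 20 CPM (counts relative to library size, scaled by the TMM method). The comparison crosses the titles, so LPS and titled genotype changed together and, as titled, their contributions cannot be told apart. The libraries were thus chosen by a measured value, their Lyz1 level. Of the 54532 genes in the table, 12326 averaged 1 CPM or more across all 4 libraries and were its members. The 2 remaining libraries, the LPS library titled KO and the untreated library titled WT, formed the low-Lyz1 pair, which has no library in common with the high-Lyz1 pair and crosses the titles the other way.

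All mice were C57BL/6, aged 6 to 8 weeks, and all carried FBXW7f/f, that is, alleles of Fbxw7 flanked by loxP sites. The KO title stands for the addition of LysM-cre, a Cre recombinase placed in the Lyz2 locus and active in myeloid cells. Marrow cells were grown for 6 days in medium with 10% serum and 20% medium conditioned by L929 cells, a fibroblast line that secretes macrophage colony-stimulating factor, and were left untreated or given LPS for 3 h. The sources used here give neither the LPS dose nor the number of mice behind a library. The genotype tags went against the titles: they gave FBXW7f/f for both untreated libraries and LysM-cre FBXW7f/f for both LPS libraries. By title, the high-Lyz1 pair set an LPS library without Cre against an untreated library with Cre. By tag, it set an LPS library with Cre against an untreated library without it. By title and by tag alike, genotype and LPS differed together in the pair. Whether the titles of 2 libraries were exchanged, in which case the pair would be of 1 genotype, was not tested.

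LPS, a component of the outer membrane of Gram-negative bacteria, is recognised by CD14, MD-2 and TLR4 at the macrophage surface. The receptor signals through MyD88 to NF-kB and MAP kinases, and from endosomes through TRIF to IRF3 and interferon-beta, which then acts back on the cells through its own receptor. In macrophages the early products are cytokines, chemokines, feedback inhibitors of NF-kB and kinase signalling, and interferon-stimulated genes.

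The values that formed the pairs are given as a description. Lyz1, at chr10:117287797-117292868 on the minus strand (mm10), which encodes lysozyme of gut Paneth cells and some myeloid cells, stood at 32.9 CPM in the untreated library titled KO from 910 counts, and in the LPS library titled WT at 33.1 CPM from 569. The libraries outside the threshold lay far below it, the untreated library titled WT at 2.86 CPM (63 counts) and the LPS library titled KO at 2.63 CPM (43 counts). Lyz2, the macrophage lysozyme gene next to it at chr10:117277331-117282321 on the minus strand, took the opposite order, at 8711 and 9917 CPM in the high-Lyz1 pair against 15253 and 18238 CPM in the low-Lyz1 pair. The 2 genes are close copies, so reads may be split between them and both counts are uncertain. Since the pairs were formed on Lyz1, any gene whose level follows Lyz1 across the libraries shows little difference within a pair by construction.

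Fbxw7, the targeted gene, at chr3:84815268-84979198 on the plus strand, encodes the subunit of an SCF ubiquitin ligase that binds its substrates. It had 477 counts (17.2 CPM) in the untreated library titled KO, 170 counts (9.90 CPM) in the LPS library titled WT, 395 counts (17.9 CPM) in the untreated library titled WT, and the LPS library titled KO had 191 counts (11.7 CPM). Both untreated libraries lay above both LPS libraries, whatever the title. Within the high-Lyz1 pair the level was 1.74-fold lower after LPS (exact 95% interval from the counts 1.46 to 2.09). Counts were summed over the whole gene and so do not show whether an exon was lost, and these values check neither the titles nor the tags.

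Each group held 1 library, of 17610372 to 23835940 counts, so no p-value was computed and no difference has a replicate check. Intervals cover counting error only. A gene was called at 2-fold or more when the exact 95% binomial interval of its 2 counts excluded no change. Defining macrophage genes were present in both libraries of the pair: Adgre1 (F4/80) stood at 2669 CPM untreated and 3698 CPM with LPS, and Csf1r (the receptor for macrophage colony-stimulating factor) at 1891 and 1477 CPM. Of 23 measured macrophage identity and surface genes, 1 was called higher and 3 lower, with a median log2 ratio of 0.24 by TMM and -0.26 by library totals. Their summed level was 27920 to 36630 CPM over the 4 libraries. In such bulk samples, fewer cells of a type and less RNA per cell cannot be told apart.

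Markers of other cell types moved by small sums. The 12 neutrophil markers summed to 34.5 and 30.8 CPM in the high-Lyz1 pair, untreated and LPS, against 10.5 and 7.22 CPM in the low-Lyz1 pair. Only 2 of them were measured, and 1 (S100a8) was called higher. The other, Mmp8, was not called, with a log2 ratio of -0.63. It stood at 29.4 and 19.0 CPM in the high-Lyz1 pair and at 6.58 and 3.92 CPM in the low-Lyz1 pair. Mmp8 alone thus made up most of each neutrophil sum. The 10 monocyte markers, 7 of them measured, with 1 called higher and 2 lower, summed to 92.1 and 95.7 CPM in the high-Lyz1 pair and to 58.6 and 57.7 CPM in the low-Lyz1 pair. The 7 B cell markers took the reverse order, at 42.8 and 48.2 CPM in the high-Lyz1 pair and 109 and 169 CPM in the low-Lyz1 pair. T and NK cell markers summed to at most 62.2 CPM, dendritic cell markers to 8.14 to 19.0 CPM, fibroblast markers to 1.36 to 3.24 CPM, and erythroid and mast cell markers to 0.181 to 4.37 CPM in the 4 libraries. Of the T and NK cell sum of 62.2 CPM, in the LPS library titled KO, Cd4 alone gave 56.0 CPM. Neutrophil-defining Ly6g had at most 1 count in any library. The part of these cells in the results below was not tested.

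Between the untreated library titled KO and the LPS library titled WT, 3520 of the 12326 genes were called, which is 28.6%: 1682 higher with LPS (13.6%) and 1838 lower (14.9%). The changes were not of equal size in the 2 directions. At 8-fold or more, 362 genes were higher (2.94%) and 99 lower (0.803%), and at 32-fold or more, 95 were higher (0.771%) and 5 lower (0.0406%). Genes called higher took 9.15% of all counts in the untreated library and 30.7% in the LPS library, and genes called lower took 6.35% and 1.51%. The genes called lower had a median of 6.93 CPM over the 4 libraries, the genes called higher 42.4 CPM and all measured genes 22.0 CPM. Of the genes called higher 84.3% were protein coding, of those called lower 90.3%, and of all measured genes 90.2%. Scaling by library totals in place of TMM shifted the median log2 ratio of all genes from -0.06 to -0.55, and the calls then split into 1108 higher and 3645 lower.

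The 12 highest protein-coding genes with a mean of at least 5 CPM were 6 interleukin genes or subunits, a pair of chemokines and 4 others: Il33, Il6, Cxcl10, Cxcl9, Gbp5, Il12b, Itgb8, Il27, Lipg, Tnn, Il1b and Il19. Il6, which encodes the acute-phase cytokine interleukin-6, rested on 4 counts (0.145 CPM) in the untreated library and stood at 160.4 CPM with LPS, 1109-fold higher (433 to 4072). In the low-Lyz1 pair it stood at 0.136 and 136 CPM. Cxcl10, a chemokine that draws activated T cells, stood at 6.80 CPM untreated and 4348 CPM with LPS, 640-fold higher (554 to 742). The low-Lyz1 pair gave 7.66 and 5797 CPM. The 2 LPS libraries lay far above the 2 untreated libraries for both genes, and the untreated libraries differed little.

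The 250 bases before the RefSeq transcription start of these and of Il19 are shown because each holds, in this window, a motif of the factors that TLR4 and interferon receptors engage. Coordinates are on GRCm38.p6, sequences read 5′ to 3′ on the gene's strand, and capitals mark the motif matches. Il6 lies at chr5:30012864-30013113 on the plus strand and holds an AP-1 match (TGANTCA, N being any base) at its far end and an NF-kB match (GGG, any 2 bases, then TTTCC) near the start. Cxcl10 lies at chr5:92348890-92349139 on the minus strand and holds an interferon-response match (GAAA, any 2 bases, then GAAA) upstream of an AP-1 match. Il19 lies at chr1:130940116-130940365 on the minus strand and holds 1 interferon-response match.
Il6: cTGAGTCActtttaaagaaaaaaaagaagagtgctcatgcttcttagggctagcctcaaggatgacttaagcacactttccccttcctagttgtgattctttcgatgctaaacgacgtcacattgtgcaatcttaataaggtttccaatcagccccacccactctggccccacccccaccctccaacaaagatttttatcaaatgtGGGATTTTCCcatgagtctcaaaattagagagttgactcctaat
Cxcl10: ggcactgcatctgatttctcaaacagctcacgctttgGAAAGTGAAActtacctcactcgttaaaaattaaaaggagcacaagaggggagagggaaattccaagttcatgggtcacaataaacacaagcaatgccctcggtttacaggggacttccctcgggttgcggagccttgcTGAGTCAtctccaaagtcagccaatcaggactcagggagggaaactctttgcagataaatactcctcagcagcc
Il19: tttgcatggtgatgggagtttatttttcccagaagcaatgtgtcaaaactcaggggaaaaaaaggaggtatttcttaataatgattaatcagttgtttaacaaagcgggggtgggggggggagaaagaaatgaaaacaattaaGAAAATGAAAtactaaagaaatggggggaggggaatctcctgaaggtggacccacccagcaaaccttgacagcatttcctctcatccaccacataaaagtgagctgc

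These 3 motifs, searched on both strands, were also counted over the promoters of all measured genes that had a RefSeq entry, 8838 of 12326. At least 1 of the 3 occurred in 16.0% of the 1121 promoters of genes called higher, in 6.10% of the 1344 promoters of genes called lower and in 8.44% of all. Among the 247 promoters of genes higher by 8-fold or more it was 28.7%. By motif, the genes called higher held the NF-kB letters in 2.86%, the interferon-response letters in 7.05% and the AP-1 letters in 7.32%, against 1.52, 2.96 and 4.22% of all promoters. Of the 12 highest genes, 10 had a promoter entry and 5 of these held a match. Among the 5 were Gbp5 and Tnn, whose windows overlap an annotated exon. The RefSeq start used for Gbp5 lay 2956 bases from its deposited start. A match is a description of letters, and its absence from this window says nothing of a factor.

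Several of the other highest genes were at or near 0 counts without LPS. Il33, which encodes an alarmin cytokine of the interleukin-1 family, had 0 counts in the untreated library and 69.2 CPM with LPS, at least 638-fold higher against a floor of 3 counts. Cxcl9, a chemokine strongly induced by interferon-gamma, also had 0 counts untreated and reached 57.9 CPM, at least 534-fold higher, and it stood at 271 CPM in the LPS library titled KO. Il12b, the p40 subunit of interleukin-12 and interleukin-23, had 1 count untreated and 34.5 CPM with LPS, a ratio of 955 (171 to 37782). Il19, of the interleukin-10 family, was at 0 counts in both untreated libraries and at 16.8 and 7.83 CPM in the LPS libraries titled WT and KO, at least 155-fold higher in the high-Lyz1 pair. For all 4 genes the LPS libraries lay above the untreated libraries in both pairs, which the filter on the mean of the 4 libraries partly fixes for genes near 0 counts without LPS.

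Genes with more counts without LPS gave narrower intervals. Gbp5, a guanylate-binding protein of the interferon-induced GTPases, rose from 5.64 to 2602 CPM, 461-fold (394 to 543), beside 9.16 and 2950 CPM in the low-Lyz1 pair. Il27, which encodes a subunit of interleukin-27, went from 0.976 to 252 CPM, 258-fold (177 to 393). Il1b, encoding the pro-form of interleukin-1 beta, went from 5.13 to 941 CPM, 183-fold (155 to 218), while the low-Lyz1 pair gave 4.04 and 215 CPM, 53.3-fold. A further set of genes rested on few untreated counts: Itgb8, an integrin subunit, went from 0.145 to 57.2 CPM, Lipg, endothelial lipase, from 0.108 to 43.6 CPM, and Tnn, tenascin-N, from 0.108 to 42.2 CPM.

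**Figure D1:**
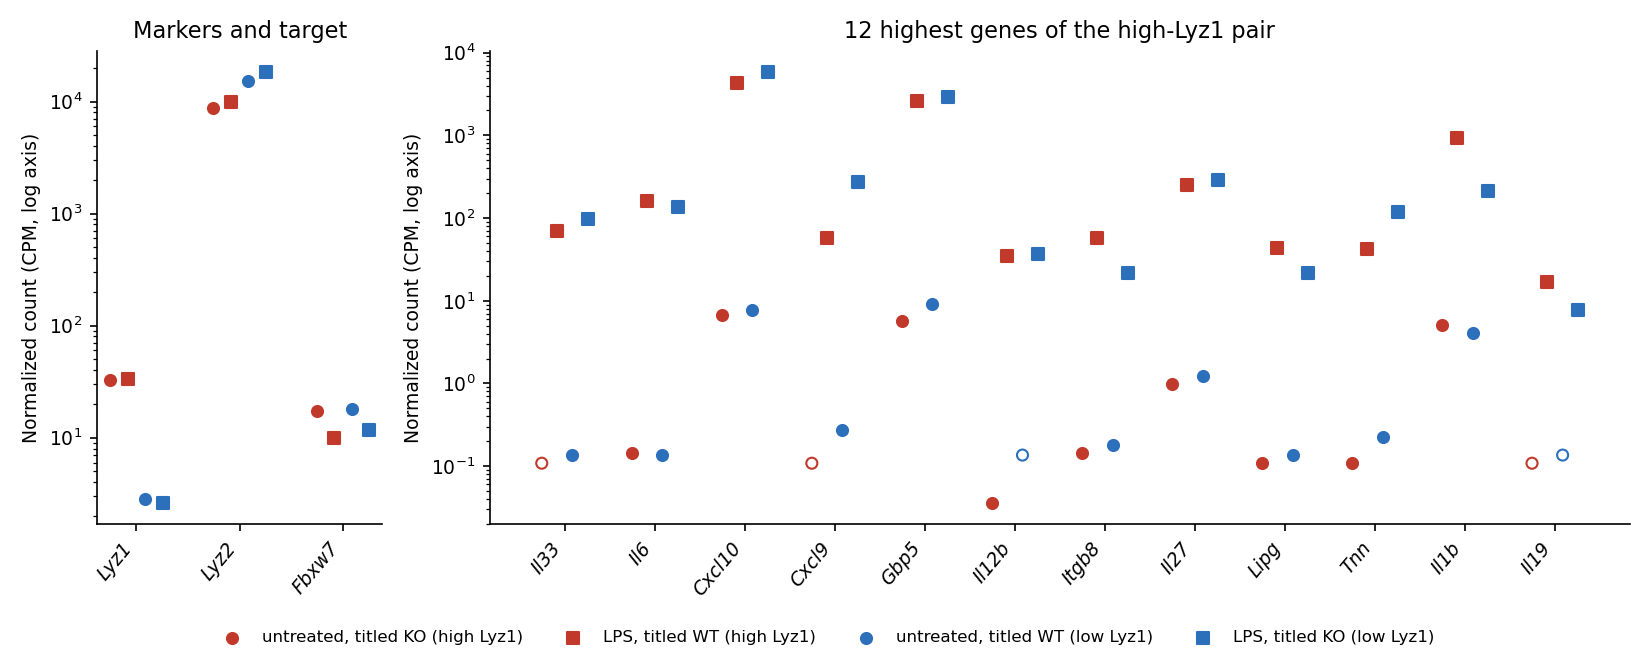
Normalized counts (CPM, log axis) of Lyz1, Lyz2 and Fbxw7 (left) and of the 12 highest genes of the high-Lyz1 pair (right), 1 point per library. Circles are untreated and squares LPS libraries, in red for the high-Lyz1 pair and in blue for the low-Lyz1 pair. Open circles are libraries with 0 counts, drawn at the level of 3 counts. Both squares of each of the 12 genes lie above both circles. The red pair ranked the genes, but the blue libraries also entered the mean of at least 5 CPM that each had to reach.

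The 12 lowest genes differed by smaller folds and kept counts in every library. Cnr2, the cannabinoid receptor of immune cells, stood at 34.7 CPM untreated and 0.699 CPM with LPS, 49.7-fold lower (28.3 to 96.5), and the low-Lyz1 pair gave 36.3 and 0.612 CPM. Bmf, a pro-apoptotic BH3-only protein, went from 34.7 to 0.990 CPM, 35.0-fold lower (21.8 to 60.4), and from 37.0 to 0.245 CPM in the low-Lyz1 pair. Sesn1, a sestrin of the stress response, went from 151 to 5.30 CPM, 28.5-fold lower (23.2 to 35.5), and from 259 to 19.6 CPM in the low-Lyz1 pair. Tfeb, a master transcription factor of lysosome genes, went from 35.0 to 1.40 CPM, 25.1-fold lower (16.7 to 39.3). In the low-Lyz1 pair Tfeb went from 39.1 to 1.90 CPM. For each of these the untreated libraries lay well above the LPS libraries.

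Cx3cr1, the fractalkine receptor of monocytes and tissue macrophages, had 3 counts (0.175 CPM) in the LPS library titled WT and 6.04 CPM untreated, a ratio of 34.6 (11.6 to 169). Lpar6, a receptor for lysophosphatidic acid, stood at 136 CPM untreated and 6.17 CPM with LPS, 22.0-fold lower (18.2 to 27.0), against 70.4 and 9.42 CPM in the low-Lyz1 pair. Cd300lb, an activating receptor of myeloid cells, stood at 196 and 9.49 CPM, 20.6-fold lower (17.7 to 24.3). The remaining 5 were Fut7 (a fucosyltransferase of selectin ligands), Pald1, Ahrr (the repressor of the aryl hydrocarbon receptor), Pgbd5 and Engase (a cytosolic endoglycosidase), 19.6- to 32.5-fold lower.

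**Figure D2:**
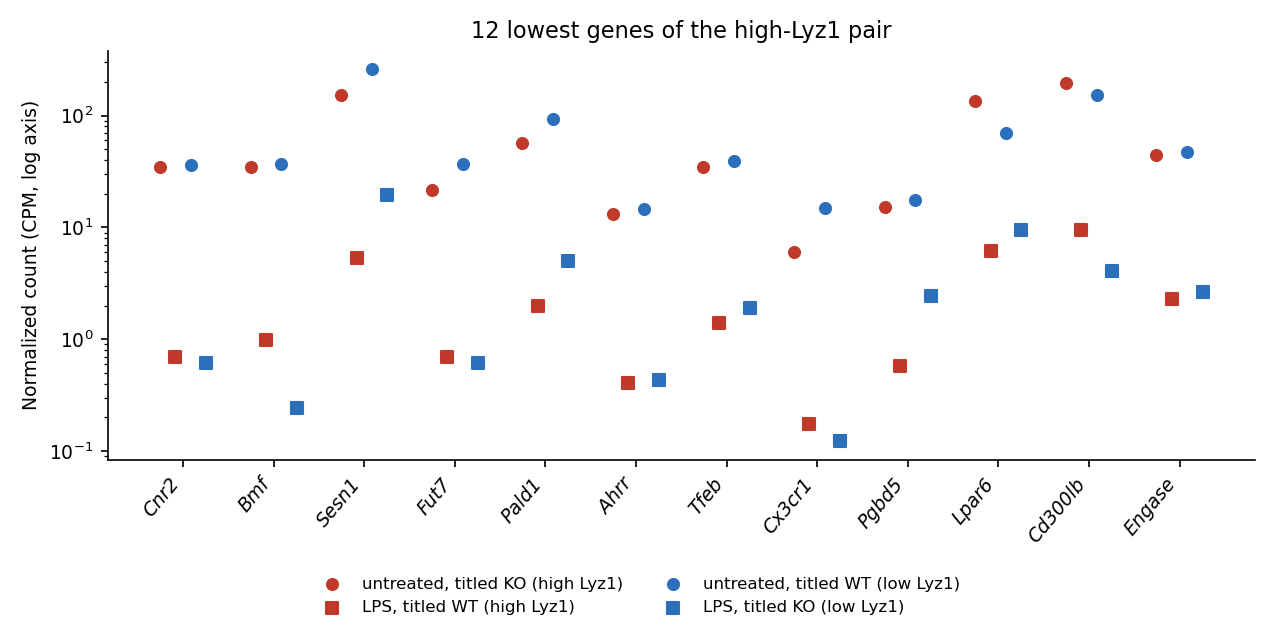
Normalized counts (CPM, log axis) of the 12 lowest genes of the high-Lyz1 pair in the 4 libraries. Circles are untreated and squares LPS libraries, in red for the high-Lyz1 pair and in blue for the low-Lyz1 pair. For every gene plotted, both circles lie above both squares, as for Cnr2 at 34.7 and 36.3 CPM untreated against 0.699 and 0.612 CPM with LPS.

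The pathway genes are given by role, each list read against 13.6% called higher and 14.9% called lower among all measured genes. A list member that passed the level filter only through its LPS level had to be higher, so the counts describe the lists and do not set them apart. Among 22 TLR4 sensing and adaptor genes, 5 were called higher and 1 lower, with a median log2 ratio of 0.48, which library totals took to -0.02. Cd14, the LPS co-receptor, went from 688 to 3366 CPM, 4.90-fold (4.82 to 4.98), and Myd88, the adaptor, from 82.1 to 320.4 CPM, 3.90-fold. The kinase gene Ikbke was 3.57-fold higher, and Tab1, an activator of the kinase TAK1, 3.80-fold lower. Tlr4 itself stood at 75.0 CPM untreated and 146 CPM with LPS, a log2 ratio of 0.96, which did not reach 2-fold.

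Of 25 inflammatory cytokine and mediator genes, 21 were measured, 19 of them higher and 1 lower, with a median log2 ratio of 5.55. Tnf, encoding tumour necrosis factor, went from 20.5 to 770.4 CPM, a log2 ratio of 5.23, beside 5.29 in the low-Lyz1 pair. Csf1, the gene of macrophage colony-stimulating factor, went from 4.19 to 111 CPM. The lower gene was Vegfa, the angiogenic growth factor, at 2.27-fold. Of 24 chemokine ligand genes, 19 were measured, 13 higher and 1 lower, with a median of 3.98.

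Ccl5, a chemoattractant of T cells and monocytes, went from 7.70 to 1112 CPM, 144-fold (126 to 166). The monocyte chemoattractants Ccl2 and Ccl7 went from 27.6 to 436 CPM, 15.8-fold, and from 14.9 to 695 CPM, 46.5-fold (42.2 to 51.4). Cxcl11, named for a ligand of CXCR3, had 2 counts untreated and 141 CPM with LPS, a ratio of 1945 (538 to 16073). Its annotation is polymorphic pseudogene, so it could not enter the highest protein-coding genes above, and its counts do not speak of a functional product. The lower ligand was Cxcl14, at 7.20-fold. Of 11 chemokine receptor genes, 8 were measured, with 2 higher, 4 lower and a median of -0.62. Ccrl2, which binds chemerin, was 47.1-fold higher (41.6 to 53.5), and Cxcr4, the receptor for CXCL12, went from 156 to 8.85 CPM, a log2 ratio of -4.13.

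Of 33 interferon and interferon-stimulated genes, 30 were higher and 0 lower, with a median log2 ratio of 3.57. Ifnb1, interferon-beta itself, went from 0.289 to 52.9 CPM, 183-fold (92.4 to 425). Cd69 was 97.1-fold higher. Rsad2, which encodes the antiviral enzyme viperin, went from 195 to 12389 CPM, 63.5-fold (61.8 to 65.2). Of 22 NF-kB components and feedback inhibitors, 19 were higher and 0 lower, with a median of 2.64. Tnfaip3, encoding the deubiquitinase A20 that restrains NF-kB, went from 32.5 to 1482 CPM, 45.5-fold (42.6 to 48.7). Tnfaip2, Traf1 and Nfkbie (an inhibitor of NF-kB) were 21.5-, 19.6- and 18.3-fold higher.

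Of 22 measured genes for feedback on kinases, cytokine signals and mRNA decay, 15 were higher and 2 lower, with a median of 1.86. Socs3 and Socs1, inhibitors of JAK signalling, were 155-fold (135 to 179) and 133-fold higher, and Dusp2, a phosphatase of MAP kinases, 61.0-fold. The 2 lower genes were Zfp36l1 and Zfp36l2, members of the tristetraprolin family of mRNA-destabilising proteins, at 9.05- and 5.72-fold. Of 21 measured immediate early and AP-1 genes, 12 were higher and 0 lower, led by Maff (30.7-fold), Nr4a3 (13.8-fold) and Mafk (6.51-fold). Of 24 antimicrobial and metabolic LPS-response genes, 21 were higher and 0 lower, with a median of 2.99. Among these, Ch25h (cholesterol 25-hydroxylase), Nos2 (inducible nitric oxide synthase), Acod1 (the enzyme that makes itaconate) and Cd40 were 178-, 119-, 105- and 102-fold higher.

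The mixed list of myeloid lineage transcription factors and quiescence genes, and that of cell cycle genes, held more genes called lower than higher. Of 25 myeloid lineage transcription factors and quiescence genes, 5 were higher and 11 lower, with a median of -0.33. Cebpa, a factor of myeloid differentiation, went from 106 to 5.59 CPM, 19.0-fold lower (15.5 to 23.6), and from 144 to 4.47 CPM in the low-Lyz1 pair. Klf7, Ccng2, Klf6, Mitf and Cebpd were the 5 higher genes, by 3.43- to 8.28-fold. Of 30 cell cycle genes, 11 were lower and 2 higher, with a median of -0.68. The mitotic genes Kif20a, Cenpa, Plk1 and Cdc20 were 4.96-, 4.69-, 4.14- and 3.83-fold lower, and Ccne1 and Pcna, which act at the start of DNA synthesis, 2.94- and 2.28-fold higher.

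Of 20 measured sterol, fatty acid and LXR genes, 3 were higher (among them Insig1 and Idi1, by 3.07- and 2.82-fold) and 2 lower. Of 19 glycolysis and hypoxia-response genes, 4 were higher (Adm, Pfkp, Ero1l and Hif1a, by 2.14- to 10.8-fold) and 1 lower. The lower gene was Gapdh, at 17.8-fold, with a count that is uncertain for the reason given below. Gapdh was placed in this list and not in the housekeeping list. Among 23 measured transcripts of reported FBXW7 substrates, 9 were higher and 2 lower, with a median of 0.34 that library totals took to -0.16. None of the 19 lysosome genes and none of the 14 housekeeping genes was called, and the median of both lists was 0.29 by TMM and -0.21 by library totals.

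The low-Lyz1 pair, which shares no library with the high-Lyz1 pair, served as the closest comparison. It gave 3678 calls (29.8%), 1743 higher (14.1%) and 1935 lower (15.7%). The 1426 genes called higher in both pairs were 84.8% of those of the high-Lyz1 pair and 81.8% of those of the low-Lyz1 pair, and 2 of the genes called higher in the first were called lower in the second. The 1442 genes called lower in both were 78.5% and 74.5%, with 3 called the opposite way. Across the 12326 genes, which share library depth and scaling and are not independent, the log2 ratios of the pairs had a Pearson correlation of 0.928. The median size of the difference between the pairs' log2 ratios was 0.22.

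The difference between the pairs was past 2-fold, with a 95% Poisson interval excluding 0, for 520 genes (4.22%), 290 with a higher ratio in the high-Lyz1 pair (2.35%) and 230 with a lower one (1.87%). The same rule applied to the pairs of equal title gave 2229 genes (18.1%), 1273 with a higher ratio in the pair titled WT (10.3%) and 956 with a lower one (7.76%). For each gene the log2 ratios of the 2 Lyz1 pairs sum to those of the 2 title pairs, since the same 4 libraries enter, so only the difference depends on the pairing. Each title pair shares a library with each Lyz1 pair. Because the pairs were formed on Lyz1, genes that follow it in either direction differ little within a Lyz1 pair but do differ within a title pair. The counts of 520 and 2229 are thus partly fixed by how the pairs were formed. The pair titled WT gave 3747 calls (30.4%), 1900 higher (15.4%) and 1847 lower (15.0%), and the pair titled KO 3992 (32.4%), 1798 higher (14.6%) and 2194 lower (17.8%).

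**Figure D3:**
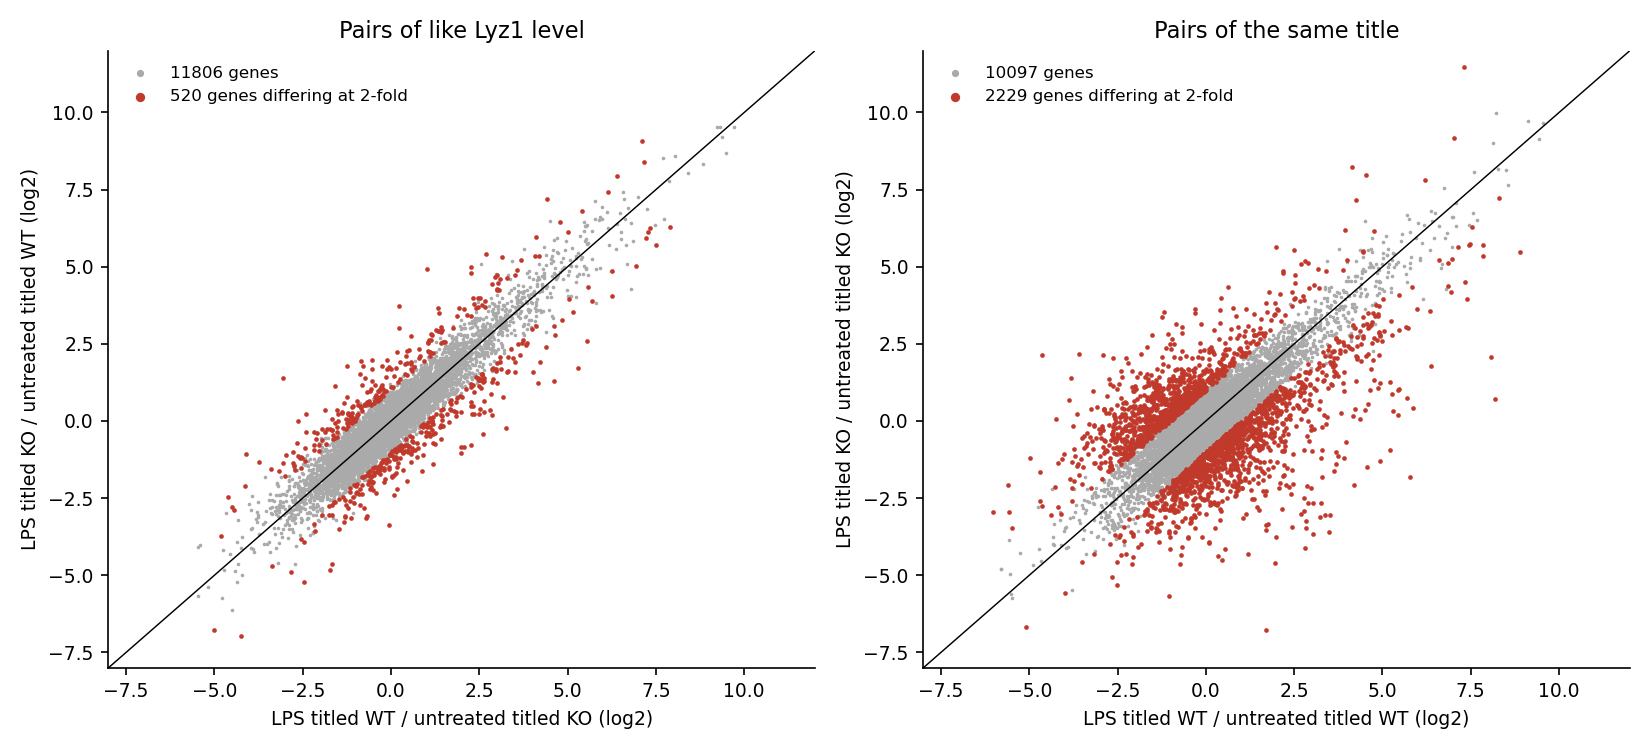
Log2 ratios of LPS to untreated for the 12326 measured genes, 1 point per gene, with the high-Lyz1 pair against the low-Lyz1 pair (left) and the pair titled WT against the pair titled KO (right). Red points are the 520 and 2229 genes whose 2 ratios differed at 2-fold or more, and the line marks equal ratios. Genes that follow Lyz1 differ little within a Lyz1 pair by construction, so these 2 counts are partly fixed by how the pairs were formed.

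Of the 21 measured cytokine and mediator genes, 7 had a higher ratio in the high-Lyz1 pair than in the low-Lyz1 pair and 0 a lower one. Il10, the anti-inflammatory interleukin-10, stood at 3.58 CPM untreated and 33.1 CPM with LPS, 9.24-fold (7.45 to 11.6), against 6.53 and 11.3 CPM, 1.72-fold, in the low-Lyz1 pair. The difference was 2.40 log2 units (1.96 to 2.83). Flrt3 had log2 ratios of 4.03 and 1.60, Jag1, a ligand of Notch, 2.53 and 0.38, and Arg2, a mitochondrial arginase, 2.34 and 0.22. Ptges, the prostaglandin E synthase, had 3.52 and 1.59, and Edn1, the precursor of endothelin-1, 6.94 and 5.03. Tmem119, a membrane protein known as a marker of microglia, had -0.67 and -3.06, both below 0. Il1b differed by 1.79 (1.41 to 2.17). Srp54b, Sumo2 and Dynlt1c also reached the 10 largest, but have close copies in the genome that make their counts uncertain.

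Of the 33 interferon and interferon-stimulated genes, 3 had a lower ratio in the high-Lyz1 pair and 0 a higher one. Irf8, a transcription factor of macrophages and dendritic cells, stood at 210 and 285 CPM, 1.36-fold, in the high-Lyz1 pair against 171 and 818 CPM, 4.78-fold, in the low-Lyz1 pair, a difference of -1.82 (-1.89 to -1.74). Under library totals the log2 ratio of Irf8 in the high-Lyz1 pair was -0.06. Ifnb1 differed by -1.99 (-3.81 to -0.16), on few untreated counts, and Irf7 had log2 ratios of 1.05 and 2.55. Cd274, encoding the checkpoint ligand PD-L1, stood at 145 and 1116 CPM, 7.70-fold, against 45.9 and 1171 CPM, 25.5-fold. The LPS levels of Cd274 were close and the untreated level was higher in the library titled KO.

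Cxcr4 also differed by its untreated levels: the LPS libraries stood at 8.85 and 10.4 CPM and the untreated ones at 156 and 44.8 CPM, for log2 ratios of -4.13 and -2.10. Tnfaip6, Nptx1, Arhgap28, Spsb1 and Dusp5 differed by -2.79, -2.41, -2.20, -2.18 and -1.78. The interval of Tnfaip6 was wide (-4.91 to -0.67), on 10 and 0 untreated counts in the high-Lyz1 and low-Lyz1 pairs. Nptx1 (-4.19 to -0.63) had 659 and 29 counts in the high-Lyz1 pair, untreated and LPS, but 10 and 2 in the low-Lyz1 pair, where it was not called. Gapdh, the glycolytic enzyme, differed by -3.04 (-3.60 to -2.49), with 65.3 and 3.67 CPM in the high-Lyz1 pair and 7.57 and 3.55 CPM in the low-Lyz1 pair. Gapdh has many processed copies in the mouse genome, so its count is uncertain.

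For several lists the pairing by title gave other medians than the pairing by Lyz1. The median log2 ratio of cell cycle genes was -0.68 in the high-Lyz1 pair and -0.53 in the low-Lyz1 pair, but -1.92 in the pair titled WT and 0.44 in the pair titled KO, the last of which library totals took to -0.02. The calls were 2 higher and 11 lower, 2 and 9, 2 and 24, and 5 and 1, in that order. Plk1, the mitotic kinase, had log2 ratios of -2.01, -1.92, -3.46 and -0.48. Chemokine receptors had medians of -0.62, -1.06, 1.77 and -2.66. Among them Ccr1 stood at 22.3 and 19.7 CPM in the high-Lyz1 pair and at 1.63 and 2.63 CPM in the low-Lyz1 pair.

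Ccr1 followed the Lyz1 order across the libraries, as did Ctsl, a lysosomal protease, at 3798 and 2041 CPM against 1013 and 849 CPM. The log2 ratios of Ccr1 were -0.17 and 0.66 in the high-Lyz1 and low-Lyz1 pairs but 3.52 and -3.04 in the pairs titled WT and KO. Inhba and Cxcl1 showed LPS and Lyz1 order together. Inhba, the activin A subunit, stood at 2.75 and 68.0 CPM in the high-Lyz1 pair and 0.136 and 4.59 CPM in the low-Lyz1 pair, with log2 ratios of 4.58 and 4.33 by Lyz1 pair but 8.20 and 0.72 by title. Cxcl1, a neutrophil chemoattractant, stood at 2.13 and 74.5 against 0.181 and 9.24 CPM, with 5.06 and 5.07 by Lyz1 pair but 8.07 and 2.07 by title. The lists of interferon-stimulated genes (3.57, 4.01, 3.82 and 3.71) and NF-kB genes (2.64, 2.51, 2.67 and 2.38) gave like medians by each pairing.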

How the data were processed

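Polyadenylated RNA was sequenced from 4 libraries of bone marrow-derived macrophages, 1 for each title (WT or KO, untreated or 3 h of LPS), from 3 µg of RNA each per the labels' protocols. Per the submitters' processing notes, the authors used HISAT2 2.0.5 and mm10. Per the file headers, the deposited table held read counts for each gene and library together with the authors' FPKM. The sources used here do not say how reads were counted, whether strand was used or how FPKM was scaled. Overlapping genes and close copies are therefore uncertain. No use was made of 8 other per-sample columns.

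Groups followed the titles. Counts were scaled by the TMM method of edgeR 4.0.16 over the 4 libraries, with factors of 1.25 and 1.16 for the untreated libraries titled WT and KO and 0.820 and 0.840 for the LPS libraries titled WT and KO. A log2 ratio carries a prior count of 2, and printed folds divide the normalized counts without a prior. A gene averaging 1 CPM or more over the libraries was called at 2-fold when the exact 95% Clopper-Pearson interval of its 2 counts excluded no change. Against 0 counts, a floor of 3 counts per library (0.109 to 0.184 CPM) gave a lower bound. For the difference between pairs, a 95% Poisson interval came from the delta method. With 1 library per group there was no test between conditions. The size rule was tried on simulated Poisson counts with known folds. Such counts hold counting error alone, so the simulation cannot show how reliable a call between 2 single libraries is. The members and the 25 gene lists were chosen with earlier results of these data known. Where a symbol had more than 1 identifier, the one with the most counts was used.

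The text names the 12 protein-coding genes highest in the high-Lyz1 pair and the 12 lowest with a mean of at least 5 CPM and no provisional symbol, the 10 such genes with the largest difference between the pairs in each direction, up to 4 members of each list with the largest ratio, members called against their list's median, and Fbxw7, Lyz1, Lyz2, Ccl2 and Ccl7. Other members named in the report (among them Tnf, Csf1, Tlr4, Irf7, Inhba, Cxcl1 and Ccr1) were chosen after their values were seen. Promoters came from RefSeq (GRCm38.p6), matched by symbol, with starts up to 10000 bases from the deposited gene start accepted. Windows overlapping an annotated exon of GENCODE M21 were not printed but stayed in the motif counts. Alternatives were library totals, DESeq2 1.42.0 size factors, TMM over the compared libraries, other filters, prior counts, fold and interval thresholds, protein-coding genes alone, and the authors' FPKM on the log2(FPKM + pseudocount) scale with pseudocounts of 1 and 0.1, on which folds of low genes are understated. Computation used SciPy 1.17.1, NumPy 2.4.6 and pandas 2.3.3 under Python 3.11.15, matplotlib 3.10.9 for plots, and R 4.3.3.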

Additional observations from a re-analysis of the deposited data

Results flagged for a closer look

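A set of 5 genes was called in opposite directions in the 2 Lyz1 pairs, and none of these differences was tested, since each library stands alone. Cd300ld3, of the CD300 receptor family, had a log2 ratio of -3.06 in the high-Lyz1 pair and 1.39 in the low-Lyz1 pair. It stood at 14.8 CPM in the untreated library titled KO and at 0.454 to 1.69 CPM in the 3 other libraries. Camkk1, a calcium-dependent kinase, had -1.59 and 1.15, and Tal2, a basic helix-loop-helix factor with few counts, 1.19 and -1.40. The noncoding Gm10076 had -1.25 and 1.78, and the ribosomal pseudogene Rpl30-ps1 1.97 and -1.03.

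For 3 gene lists the median log2 ratio had opposite signs in the pair titled WT and the pair titled KO, again untested. Chemokine receptors had medians of 1.77 and -2.66, cell cycle genes -1.92 and 0.44 (-2.52 and -0.02 under library totals, so of like sign), and markers of monocytes 1.19 and -0.52. The same lists had medians of like sign in the high-Lyz1 and low-Lyz1 pairs, at -0.62 and -1.06, -0.68 and -0.53, and -0.48 and -0.37. Members that follow Lyz1 differ little within a Lyz1 pair by construction.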

How the results depend on the processing

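No paired analysis was possible because each group holds 1 library, and no replicate could be left out. The 3520 calls of the high-Lyz1 pair became 1133 at 4-fold and 1955 on log2(FPKM + 1). The 3678 of the low-Lyz1 pair became 1238 and 2033. The 520 genes differing between the pairs became 230 with a mean of at least 5 CPM, 70 at 4-fold and 158 on log2(FPKM + 1). Under the other alternatives run, these counts ranged from 2350 to 4980, 2486 to 5113 and 389 to 737. Library totals kept 2946 of the 3520 genes (83.7%) and called 1108 higher and 3645 lower, while DESeq2 size factors kept 3365 and called 1777 higher and 1683 lower. All 104 named genes that were called held their direction under the 7 alternatives run for them, and 95 to 104 still passed 2-fold. The medians of the TLR4 sensing, macrophage identity, lysosome, FBXW7 substrate, housekeeping and lysozyme lists changed sign under library totals (-0.02, -0.26, -0.21, -0.16, -0.21 and -0.40), and the cytokine median fell to 4.19 on log2(FPKM + 1). Pairs crossed by title mix LPS with genotype, and ratios resting on under 4 untreated counts are set by few reads.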

Other observations

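Some genes called higher in the high-Lyz1 pair lay side by side. In this search, made after the values were seen, 31 runs of at least 4 consecutive measured genes, with gaps of at most 200 kb, were all called higher. They held 176 of the 1682 genes called higher, of which 161 were also called higher in the low-Lyz1 pair. The Irgm1 and Tgtp region on chromosome 11 (48861968 to 49135387) gave a run of 12 genes, with median log2 ratios of 2.39 and 3.51 in the high-Lyz1 and low-Lyz1 pairs. It held interferon-inducible GTPases together with other genes, such as Psme2b and Olfr56. The Schlafen cluster on chromosome 11 (82951349 to 83215154) gave 10 genes, some with provisional symbols, with 2.50 and 2.99. Guanylate-binding protein genes lay in runs of 7 genes each on chromosomes 3 and 5. These runs also held neighbours of other families, Pdlim5 and Kyat3 on chromosome 3 and Lrrc8b and Lrrc8c on chromosome 5. The Ifit genes, antiviral RNA-binding proteins, formed a run of 6 on chromosome 19, with medians of 3.97 and 4.48. Members of such families can share reads, and overlapping neighbours cannot be told apart without strand.

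By the transcription factor families given in the deposited table, 35 of 379 measured C2H2 zinc finger genes were called higher and 66 lower, beside 13.6% and 14.9% of all genes. Of 42 bZIP genes, the family that holds AP-1, 12 were higher and 6 lower. Of 9 Rel homology genes, 5 were higher (Nfkb1, Rel, Nfkb2, Relb and Rela, log2 ratios 1.85 to 3.13) and 2 lower (Nfatc1 and Nfatc2, at -1.48 and -1.85). Of 8 IRF genes 4 were higher and 0 lower, led by Irf1 at 3.57, and of 7 STAT genes 4 were higher and 0 lower, led by Stat5a at 2.89. On the lower side were 4 of 10 E2F genes, 3 of 5 RXR-like nuclear receptor genes, with Rxra at -2.27, and 5 of 13 forkhead genes, with Foxo3 at -3.46, while the forkhead genes Foxp1 and Foxp4 were higher, at 2.16 and 3.10.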
